A study of Mus musculus with 35 samples.

Results

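The genes described here are 40 mouse genes of the cell cycle and DNA replication, measured by RNA sequencing in myeloid-derived suppressor cells (MDSC) of mice with pancreatic tumors and in whole tumor tissue. They were chosen by symbol, by matching the Ensembl identifier of each row of the count table to its mouse gene symbol, and the symbols were listed by function with earlier results of these data known. All 40 were found among the 53379 genes of the table. By role, 10 belong to the replication machinery, 4 supply nucleotides, 7 are cyclins, the kinase Cdk1 or the transcription factor E2f1, 8 are mitotic kinases or act in the spindle checkpoint and the anaphase-promoting complex, and 11 act on chromosomes, the spindle or cytokinesis.

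T110299 cells, a line grown from the pancreatic tumor of a mouse with Ptf1a-Cre and LSL-Trp53 fl/R172H among its alleles, were implanted into the pancreas of C57BL/6 mice, so that all groups carry the same tumor line. The treated mice received poly(I:C)c, which is 50 µg of the double-stranded RNA mimic poly(I:C) complexed with the carrier polyethylenimine, intravenously on days 18 and 20 after implantation. The controls are labelled untreated, while the treatment protocol in the labels names glucose as the control. PMN-MDSC (CD11b+ Ly6Clo Ly6G+) and M-MDSC (CD11b+ Ly6Chi Ly6G-) were sorted from spleen and from tumor, and whole tumor tissue of control mice was lysed without sorting. The groups held 4 libraries each, except treated spleen PMN-MDSC and treated tumor M-MDSC with 3. The age of the mice was not in the labels. The columns of the table name the group of a library and not its mouse, so the library numbers used below only tell libraries of a group apart. The sample titles give cell types and compartments the same running numbers, so libraries of different groups can come from the same mice and were fitted as independent, and p-values measure the spread between these libraries.

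A cell that divides passes through G1, copies its DNA in S phase, and separates the copies in mitosis. E2F factors, of which E2f1 is an activator, switch on the genes for licensing factors, the MCM helicase and nucleotide synthesis before S phase, while many mitotic genes are kept low by the DREAM complex through the CHR promoter element and peak later in the cycle. Neutrophils and monocytes arise from dividing precursors in bone marrow and, under inflammation, in spleen, and mature neutrophils no longer divide, so these genes are widely read as markers of immature or cycling cells.

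The promoters of 7 members are shown to set E2F sites of replication genes beside CHR and CCAAT elements of mitotic genes, roles that are described apart below. Each is the window from 250 bases before to 50 bases after the transcription start given by RefSeq on GRCm38.p6, read 5′ to 3′ on the strand of the gene. Capitals in the first set mark E2F sites, searched on both strands as TTTCCCGC, TTTCGCGC, TTTGCCGC and TTTGGCGC, while the CCAAT boxes of these 3 windows and the CHR match of Mcm5 are left unmarked. The Mcm3 window lies at chr1:20820263-20820562 on the minus strand, the Mcm5 window at chr8:75109259-75109558 on the plus strand and the Mcm6 window at chr1:128359656-128359955 on the minus strand, and these genes encode subunits of the replicative helicase.
Mcm3: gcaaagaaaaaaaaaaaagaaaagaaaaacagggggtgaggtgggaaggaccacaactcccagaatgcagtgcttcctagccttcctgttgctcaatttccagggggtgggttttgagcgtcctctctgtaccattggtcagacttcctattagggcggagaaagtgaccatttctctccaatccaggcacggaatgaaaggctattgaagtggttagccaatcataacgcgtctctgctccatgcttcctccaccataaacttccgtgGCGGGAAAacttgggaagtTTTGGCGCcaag
Mcm5: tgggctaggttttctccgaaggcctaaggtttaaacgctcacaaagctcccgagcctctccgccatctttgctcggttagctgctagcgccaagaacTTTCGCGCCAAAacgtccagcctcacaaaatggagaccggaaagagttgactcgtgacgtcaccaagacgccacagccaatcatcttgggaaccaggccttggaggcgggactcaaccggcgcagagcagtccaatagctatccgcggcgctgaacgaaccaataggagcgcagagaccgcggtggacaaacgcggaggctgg
Mcm6: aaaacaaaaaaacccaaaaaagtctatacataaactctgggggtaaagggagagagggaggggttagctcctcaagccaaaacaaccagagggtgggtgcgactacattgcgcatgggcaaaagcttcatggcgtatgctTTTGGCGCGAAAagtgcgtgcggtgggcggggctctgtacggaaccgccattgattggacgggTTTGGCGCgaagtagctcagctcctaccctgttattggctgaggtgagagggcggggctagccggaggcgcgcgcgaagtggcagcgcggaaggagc

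In the second set, capitals mark the CHR, searched as TTTGAA and TTTAAA (the latter reads the same on both strands), and the CCAAT box, searched as CCAAT, each on both strands. Cenpf, at chr1:189688037-189688336, encodes a kinetochore protein, Top2a, at chr11:99024140-99024439, the topoisomerase that untangles sister chromosomes, Cdc20, at chr4:118437294-118437593, an activator of the anaphase-promoting complex, and Kif23, at chr9:61946750-61947049, a motor of the central spindle. All 4 windows are on the minus strand.
Cenpf: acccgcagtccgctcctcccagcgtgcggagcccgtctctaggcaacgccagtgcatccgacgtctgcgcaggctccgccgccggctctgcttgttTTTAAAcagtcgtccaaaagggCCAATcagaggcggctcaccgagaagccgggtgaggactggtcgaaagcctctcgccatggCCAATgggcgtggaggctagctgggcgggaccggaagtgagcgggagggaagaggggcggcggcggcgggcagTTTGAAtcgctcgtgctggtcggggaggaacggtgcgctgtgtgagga
Top2a: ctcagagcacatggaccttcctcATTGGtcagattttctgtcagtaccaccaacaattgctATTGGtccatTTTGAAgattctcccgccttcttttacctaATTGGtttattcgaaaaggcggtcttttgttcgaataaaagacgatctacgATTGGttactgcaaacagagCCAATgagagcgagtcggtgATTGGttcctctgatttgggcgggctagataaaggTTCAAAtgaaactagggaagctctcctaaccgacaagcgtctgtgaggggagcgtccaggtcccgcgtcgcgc
Cdc20: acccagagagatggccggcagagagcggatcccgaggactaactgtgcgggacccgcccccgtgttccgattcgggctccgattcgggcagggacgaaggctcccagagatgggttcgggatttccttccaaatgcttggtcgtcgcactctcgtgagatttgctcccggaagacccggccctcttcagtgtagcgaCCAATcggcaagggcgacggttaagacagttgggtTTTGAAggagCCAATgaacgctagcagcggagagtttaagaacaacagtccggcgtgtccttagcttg
Kif23: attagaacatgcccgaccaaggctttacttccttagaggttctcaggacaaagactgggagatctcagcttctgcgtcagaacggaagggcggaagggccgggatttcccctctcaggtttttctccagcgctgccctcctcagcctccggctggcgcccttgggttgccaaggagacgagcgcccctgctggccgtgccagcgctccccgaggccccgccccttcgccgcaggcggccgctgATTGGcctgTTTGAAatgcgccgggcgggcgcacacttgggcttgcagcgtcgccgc

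RefSeq windows were found for 34 of the 40 members. An E2F site was present in 6 of 9 replication genes, with 3 matches in Mcm6 and 2 in each of Mcm3, Mcm5 and Mcm7, and in 0 of 16 mitotic genes, against 2.26% of all 32851 windows of this length. The CHR was present in 14 of 16 mitotic genes and 3 of 9 replication genes, against 27.6% of all windows. The CCAAT box was present in 26 of the 34 members, against 37.4% of all windows. In Mcm5 and in the upstream site of Mcm6, matches on opposite strands overlap. A match describes the letters only, and their part in the expression values was not tested.

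Of 35 deposited libraries, 34 were used and 1 with 10 counts was left out. The 30 MDSC libraries held 793070 to 4357105 counts and the 4 bulk tumor libraries 3771590 to 8886115, and the members took 441 to 30347 counts of a library. Values below are CPM, counts per gene scaled to the total count of the library, unless named otherwise, the module mean is the mean of log2(CPM + 1) over the 40 members, and fold changes are log2 estimates ± SE from edgeR's quasi-likelihood test with scaling between libraries. A member was called at a Benjamini-Hochberg adjusted p under 0.05 over all genes that passed a minimum mean of 25 counts. The sorted groups were checked against marker lists. The 9 neutrophil markers summed to 19648 to 31989 CPM in untreated spleen PMN-MDSC but to 1465 to 4512 in untreated tumor PMN-MDSC, where Ly6g itself was at 0 to 9.19 CPM and the 6 macrophage markers summed to 9749 to 13299.

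The module was highest in bulk tumor, and among sorted cells it was highest in spleen M-MDSC and lowest in treated spleen PMN-MDSC. In untreated mice the module mean was 5.33 ± 0.19 (SD, n = 4) in bulk tumor, 4.69 ± 0.42 in spleen M-MDSC, 4.04 ± 0.28 in tumor PMN-MDSC, 3.54 ± 0.23 in spleen PMN-MDSC and 3.17 ± 0.77 in tumor M-MDSC. In treated mice it was 5.11 ± 0.84 in spleen M-MDSC, 4.70 ± 0.27 in tumor M-MDSC (n = 3), 4.05 ± 0.86 in tumor PMN-MDSC and 2.79 ± 1.34 in spleen PMN-MDSC (n = 3). Each untreated group overlapped its neighbour in this order, bulk tumor library 3 (5.05) lying below spleen M-MDSC library 3 (5.11). In bulk samples such as these, fewer cycling cells and less RNA of these genes per cell cannot be told apart.

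**Figure D1:**
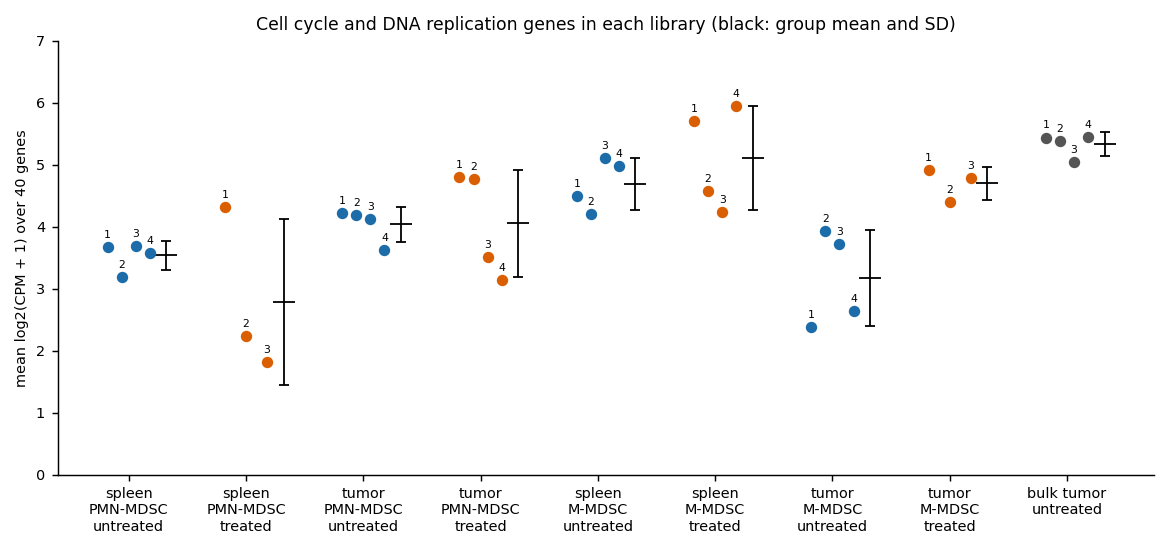
Module mean, log2(CPM + 1) averaged over the 40 cell cycle genes, for each library (points) by group, with the group mean and SD. Untreated tumor M-MDSC run from 2.39 to 3.94 and treated ones from 4.39 to 4.91, while the 3 treated spleen PMN-MDSC libraries spread from 1.81 to 4.31.

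The 6 MCM genes, which form the ring of the replicative helicase, summed to a mean of 98.6 CPM in untreated spleen PMN-MDSC, 249 in tumor PMN-MDSC, 277 in spleen M-MDSC, 164 in tumor M-MDSC and 424 in bulk tumor. The 19 mitotic members summed to 662, 675, 1210, 405 and 2851 CPM in the same order. A further value was the mean log2 level of the 10 replication and 4 nucleotide supply members minus that of the mitotic members. It leaves out the cyclins, Cdk1 and E2f1. This difference was -0.63 in untreated spleen PMN-MDSC, 0.22 in tumor PMN-MDSC, -0.11 in spleen M-MDSC, 0.43 in tumor M-MDSC and -0.93 in bulk tumor. The difference was not tested, and library ranges overlapped between spleen PMN-MDSC (-1.28 to -0.28) and bulk tumor (-1.32 to -0.61) and between tumor PMN-MDSC (0.11 to 0.34) and tumor M-MDSC (0.18 to 0.92).

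Across the 30 MDSC libraries, the median correlation of a member with the mean of the other members was 0.87, and 0.83 after group means were removed, as a description over libraries that differ in depth. Top2a and Birc5, at 0.95, and Rrm2, Bub1b and Ccna2, at 0.94, followed the module most closely. Kif23, at 0.04, and Cenpa, the centromeric histone variant, at 0.31, stood apart, while within groups their values were 0.70 and 0.69. Per exon length, in FPKM computed from the counts, Mki67, the proliferation antigen that coats mitotic chromosomes, had the highest mean level of the members in untreated spleen M-MDSC (55.1) and tumor PMN-MDSC (28.1), whereas in untreated spleen PMN-MDSC Kif23 (27.1) was above Mki67 (16.7).

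**Figure D2:**
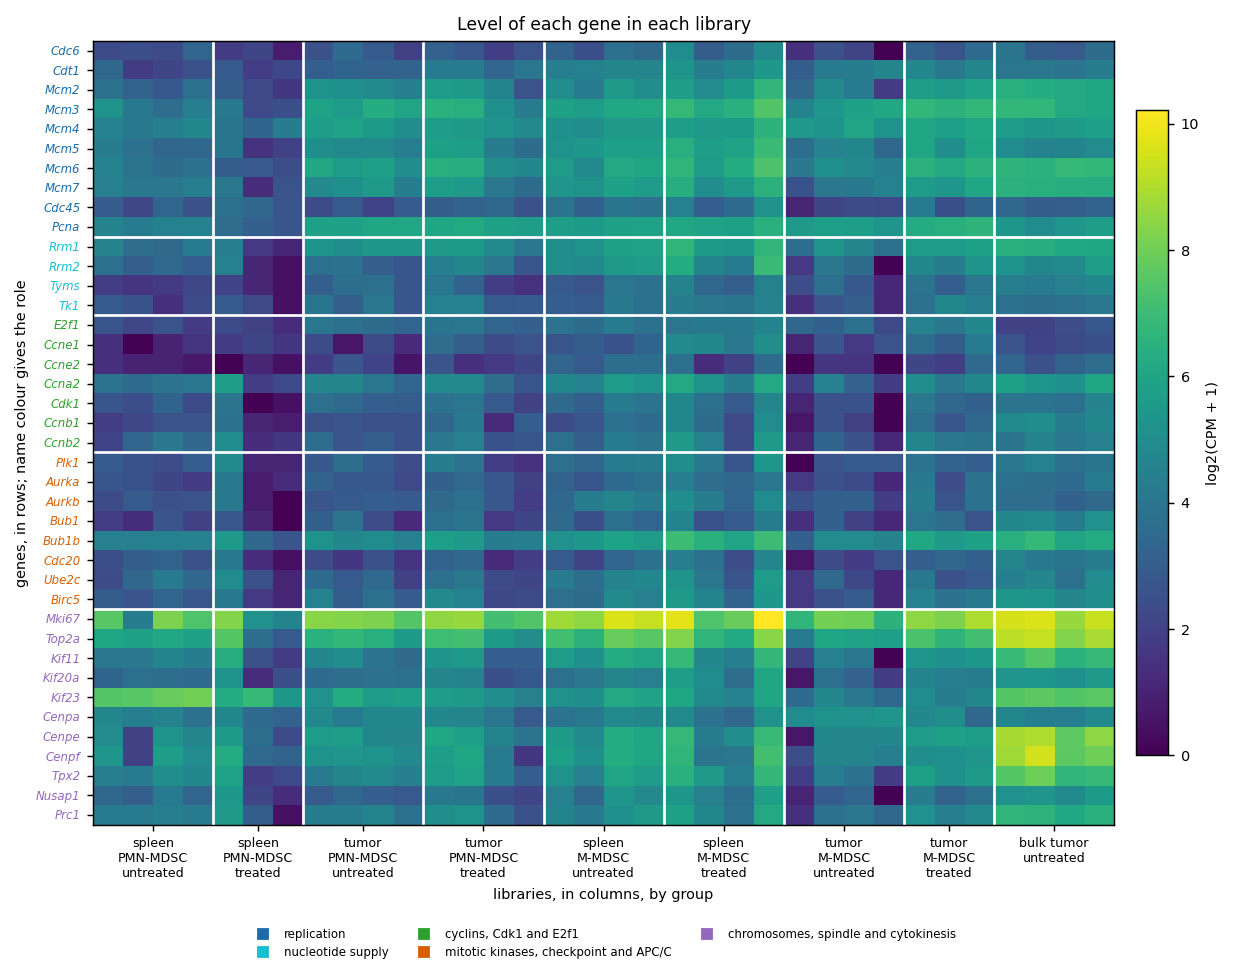
Heat map of log2(CPM + 1) for the 40 members (rows, by role) in the 34 libraries (columns, by group). Kif23 is bright in the spleen PMN-MDSC columns, at 179 to 259 CPM in untreated libraries, where most members are dark.

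The comparison of treated with control mice asked how poly(I:C)c changes the transcriptome of each MDSC population. In tumor M-MDSC, Mcm6 was the only member that rose by the test after treatment. Of the 26 members tested, 1 was called higher, and 0 lower, against 2.88% of all genes tested (1.82% higher and 1.06% lower). The log2 fold change was positive for 25 of 26 tested members, against 50% of all genes, with a median of 1.35 against a median of -0.00054 over all genes, and 19 members were higher at an unadjusted p under 0.05, against 10.4% of all genes. The 3 treated libraries lay above all 4 untreated ones for 21 of the 26 tested members (12.8% of all genes), and for 29 of the 40 members with untested ones included. The filter bears on these values, as 10 of the 26 had a mean under 25 counts in the untreated libraries and passed through the treated ones. Without the filter, 39 of 40 members had a positive estimate, against 58.5% of all genes, with a median of 1.45 against 0.21.

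In the replication machinery, Mcm6 was at 15.9, 34.4, 26.9 and 20.2 CPM in the untreated tumor M-MDSC libraries and at 94.8, 71.4 and 92.9 in the treated ones. The groups did not overlap, and Mcm6, whose window holds 3 E2F matches, rose by 1.73 ± 0.26 (adjusted p = 0.0146). Mcm5 was at 12.1, 22.2, 24.7 and 10.1 CPM against 65.3, 32.6 and 64.8 (1.51 ± 0.36, adjusted p = 0.056). Pcna, the sliding clamp of the replicative polymerases, was at 44.0, 53.2, 50.8 and 39.1 CPM against 76.7, 84.9 and 98.4 (0.79 ± 0.18, adjusted p = 0.052). Neither pair of groups overlapped, with both genes just outside the threshold. Mcm7 stood at 1.76 ± 0.40 (adjusted p = 0.0513), although 3 microRNA genes lie within it on the same strand. The members furthest from this pattern were Mcm4, at 0.34 ± 0.22, and the licensing factor Cdt1, at 7.15, 16.8, 18.6 and 24 CPM against 25.3, 16.1 and 24.3 (0.33 ± 0.39).

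Among the genes for nucleotide supply and the cyclins, Tk1, the thymidine kinase of the salvage pathway, was at 1.65, 5.39, 7.49 and 1.26 CPM in untreated and 12.6, 25 and 19.5 in treated tumor M-MDSC (2.01 ± 0.50, adjusted p = 0.0615). Rrm2, the S phase subunit of ribonucleotide reductase, was at 2.20, 15.5, 11.4 and 0 CPM against 25.3, 18.8 and 38.0. E2f1 was at 9.35, 8.09, 12.8 and 3.78 CPM against 21.9, 15.4 and 26.5 (1.14 ± 0.36, adjusted p = 0.125). In all 3 genes every treated library was above every untreated library. Untreated libraries 1 and 4 were the lowest for Tk1 and Rrm2, and the 0 of Rrm2 in library 4, of 793070 counts, allows a level of up to 3.78 CPM by counting error alone. Ccna2, the cyclin of S phase and early mitosis, was at 2.75, 22.2, 8.32 and 2.52 CPM against 33.3, 15.8 and 24.7, so that untreated library 2 overlapped the treated group. Cdk1, the mitotic kinase, was at 1.10, 4.72, 4.99 and 0 CPM against 15.6, 9.87 and 8.11, without overlap, and was too low to be tested.

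Of the mitotic members, Birc5, the chromosomal passenger protein survivin, was at 2.20, 4.72, 6.66 and 1.26 CPM in untreated and 21.9, 13.1 and 16.6 in treated tumor M-MDSC (1.94 ± 0.45, adjusted p = 0.0532). Top2a was at 17, 62.7, 58.5 and 53.0 CPM against 154, 97.8 and 142 (1.37 ± 0.38, adjusted p = 0.0825). Both gave groups that did not overlap. Among those tested the largest estimates were those of Tpx2, a spindle assembly factor (2.05 ± 0.55, adjusted p = 0.0774), Ccnb2, a mitotic cyclin (2.02 ± 0.55, adjusted p = 0.0795), and Tk1. Kif11, the motor that pushes the spindle poles apart, was at 3.30, 20.9, 15.3 and 0 CPM against 38.8, 34.4 and 42.7 (1.78 ± 0.66, adjusted p = 0.183). Mki67 was at 104, 272, 246 and 97.1 CPM against 358, 292 and 494 (1.0 ± 0.38, adjusted p = 0.184). Cenpa alone had a negative estimate, with 29.1, 35.7, 35.2 and 39.1 CPM against 25.3, 32.1 and 9.95 (-0.71 ± 0.36, adjusted p = 0.325), its groups overlapping at treated library 2.

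The untreated tumor M-MDSC libraries differed among themselves, with module means of 2.39, 3.94, 3.72 and 2.64. Markers of neutrophil progenitors, a list of 7 genes none of which was at 0 throughout either group, summed to 23.6, 156, 97.1 and 3.78 CPM in these libraries and to 249, 2.75 and 25.1 in the treated ones, whose module means were 4.91, 4.39 and 4.78. Macrophage markers summed to 3369 to 8319 CPM in untreated and 5185 to 28604 in treated libraries, and monocyte markers to 8936 to 12170 and 2100 to 4898. Fibroblast markers summed to 1.26 to 32.3 CPM in untreated and 15.4 to 84.7 in treated libraries. Megakaryocyte markers were at 8.83 to 23.6 and 19.4 to 71.6, and tumor epithelium markers at 102 to 332 and 75.2 to 107. Their part in the result was not tested. Without untreated library 4 and treated library 2, which have the lowest progenitor sums of their groups, 7 members were called, all higher, against 5.66% of all genes (3.30% higher). Without untreated library 3 or treated library 3 the count was 0, against 0.366% and 0.423% of all genes, and without treated library 1 or treated library 2 it was 3, against 6.02% and 4.58%. DESeq2 called 12 members of 26, against 9.61% of all genes (5.44% higher), and the fit without a low-count filter 22 of 40, against 4.10% (2.53% higher), all of these members higher.

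**Figure D3:**
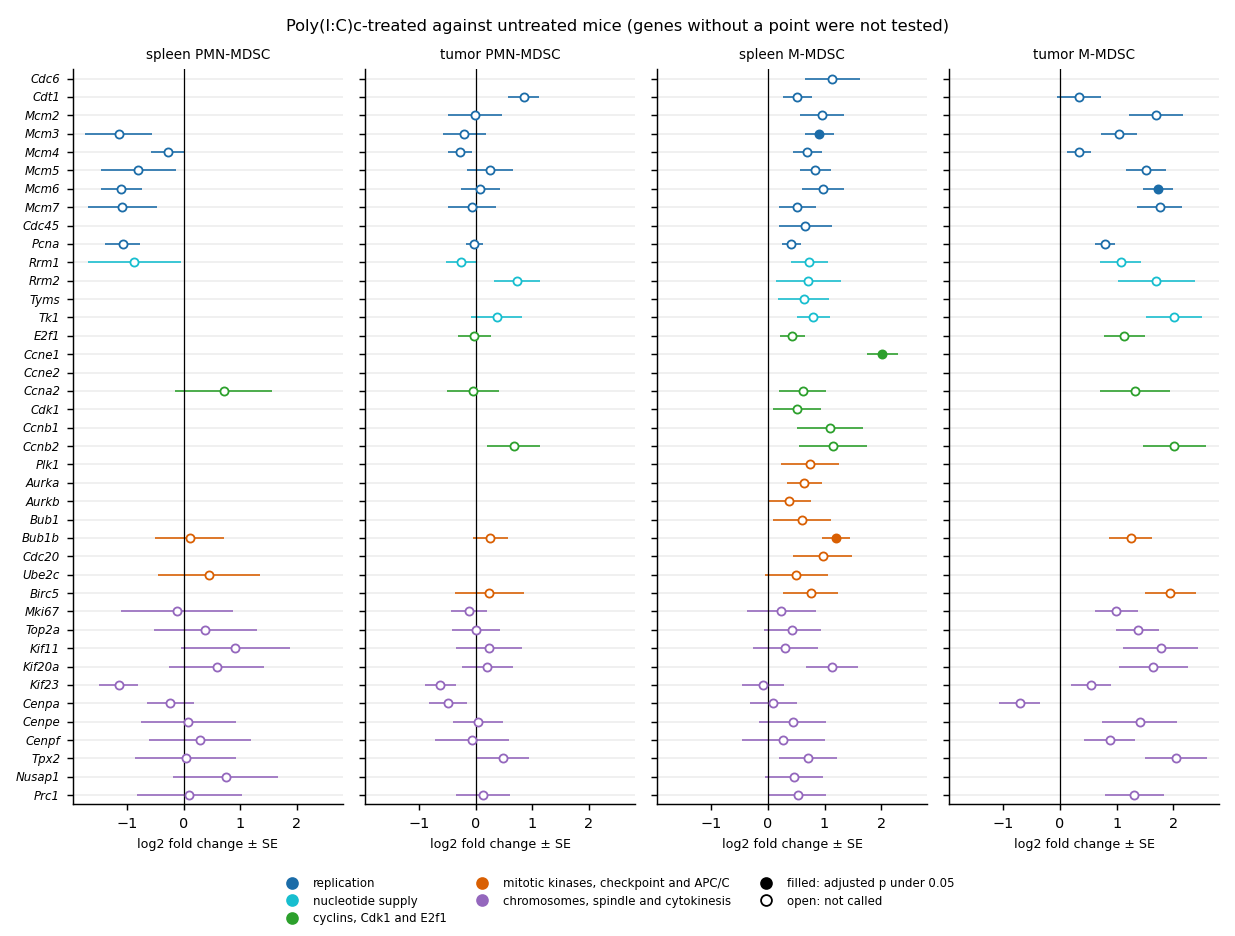
Estimated log2 fold change ± SE of treated over untreated libraries for each member tested, by role, in spleen and tumor PMN-MDSC and M-MDSC, with called members marked. In tumor M-MDSC 25 of 26 estimates are above 0, in spleen M-MDSC 38 of 39, and in both PMN-MDSC groups they lie on both sides of 0.

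In spleen M-MDSC, Ccne1, Bub1b and Mcm3 rose after poly(I:C)c, and no member fell. These were 3 of 39 members tested, against 19.6% of all genes called (10.7% higher and 8.96% lower). Cyclin E1, which drives entry into S phase with Cdk2, changed most. Ccne1 was at 5.27, 6.97, 4.97 and 8.81 CPM in untreated and 28, 26.5, 16.2 and 31.8 in treated libraries, with no overlap (2.02 ± 0.27, adjusted p = 0.00102). Bub1b, a kinase-like protein of the spindle checkpoint, was at 34.8, 42.7, 59.6 and 47.8 CPM against 126, 89.7, 61.1 and 129 (1.20 ± 0.25, adjusted p = 0.00891). Mcm3 was at 55.9, 51.6, 69.1 and 71.9 CPM against 112, 71.3, 88.5 and 173 (0.91 ± 0.26, adjusted p = 0.0356). The Bub1b groups touched without overlapping, and for Mcm3 treated library 2 lay within the untreated range. Of all genes tested, 10.4% had treated libraries all above the untreated ones.

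The estimate was positive for 38 of the 39 tested members, 4 of which passed the filter through the treated libraries, against 48.9% of all genes, with a median of 0.64 against -0.01, but most treated groups were wide. Mcm5 was at 35.9, 42.3, 53.8 and 53.1 CPM against 84.4, 50.4, 58.1 and 124 (0.84 ± 0.28, adjusted p = 0.0622), and Cdt1 at 20.0, 21.4, 24.4 and 24.3 against 37.9, 18.3, 25 and 42.9. Mki67 was at 435, 355, 785 and 644 CPM in untreated libraries and at 901, 169, 229 and 1189 in treated ones (0.24 ± 0.60). Cenpf was at 52.7, 33.9, 80.3 and 64.0 CPM against 101, 14.3, 15.5 and 138 (0.27 ± 0.73). In all 4 genes treated libraries 1 and 4 were the highest, and for Mki67 and Cenpf treated libraries 2 and 3 were below every untreated library. Plk1, a kinase of mitotic entry, was also highest in treated libraries 1 and 4, at 32.3, 16, 5.74 and 40.2 CPM against 12.1, 9.29, 17.8 and 19. Ccnb2, at 1.16 ± 0.60, had the largest estimate after Ccne1 and Bub1b, and Kif23 (-0.09 ± 0.38), Cenpa (0.10 ± 0.42) and Mki67 were the lowest.

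The split of the treated spleen M-MDSC group was also seen in the neutrophil progenitor markers, which summed to 495, 160, 65.8 and 369 CPM in the treated libraries, whose module means were 5.71, 4.58, 4.23 and 5.94, and to 188 to 423 in the untreated ones. Neutrophil markers summed to 3987, 1005, 783 and 3406 CPM in the treated libraries and to 2560 to 6133 in the untreated ones, B cell markers to 13.0, 21, 12.2 and 134 against 15.8 to 70.7, and T and NK cell markers to 4.73, 3.49, 3.04 and 41.1 against 1.58 to 6.21. Their part in the result was not tested. Other marker sums also differed from untreated to treated spleen M-MDSC without overlap, monocyte markers at 6009 to 8855 against 3132 to 4486 CPM, macrophage markers at 807 to 1052 against 316 to 605, and erythroid markers at 30.7 to 65.2 against 3.38 to 9.47, and their part was not tested. Single genes of these lists were split, with 2 of 6 monocyte markers called higher and 2 lower, and 2 of 6 macrophage markers called higher and 2 lower at a positive median of 0.65. Left-out libraries moved the count to between 2 and 7, all higher, with 7 without treated library 2 (17.7% of all genes called) and 5 without treated library 3 (15.9%).

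In spleen PMN-MDSC no member was called by edgeR, with 21 tested and 11.6% of all genes called (6.1% higher and 5.52% lower), and 3 members were lower at an unadjusted p under 0.05, against 13% of all genes. DESeq2 called 2 members, both lower, against 18.8% of all genes. The estimates closest to the threshold were those of Pcna, Kif23 and Mcm6. Pcna was at 22.8, 17.4, 21.7 and 21.8 CPM in untreated and 11.5, 7.80 and 5.40 in treated libraries (-1.07 ± 0.31, adjusted p = 0.0578). Kif23 was at 179, 187, 230 and 259 CPM against 80.0, 112 and 41 (-1.14 ± 0.34, adjusted p = 0.0647), and Mcm6 at 22.3, 14.4, 11.2 and 13.5 against 7.04, 6.31 and 4.32 (-1.10 ± 0.36, adjusted p = 0.0869). In these 3 genes the treated libraries lay below all untreated ones, as they did for 24.2% of all genes tested. All 6 replication members tested had negative estimates, with a median of -1.07, among them Mcm3 at -1.14 ± 0.59. The filter bears on this. Of the 21 tested members, 7 had a mean under 25 counts in the treated libraries and passed through the untreated ones. Mcm3, Mcm5, Mcm6, Mcm7 and Pcna are among them. Without the filter, 19 of 40 members had a positive estimate, against 35.1% of all genes.

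The mitotic members gave wide intervals in spleen PMN-MDSC, and treated library 1 differed from the others. Top2a was at 62.6, 55.8, 67.1 and 57.2 CPM in untreated libraries and at 182, 11.9 and 6.48 in treated ones. Kif11 was at 16.2, 15.4, 23.7 and 18.3 CPM against 82.0, 4.83 and 2.52, and Cdc20 at 4.51, 6.97, 8.47 and 4.82 against 16.6, 1.49 and 0.36. In each of these genes library 1 was above the untreated range and libraries 2 and 3 below it, and Kif11 (0.92 ± 0.95), Nusap1 (0.74 ± 0.93) and Ccna2 (0.71 ± 0.86) had the largest estimates of the comparison. Neutrophil progenitor markers summed to 177, 24.1 and 32.4 CPM in the 3 treated libraries and to 37.4 to 90.4 in the untreated ones, and their part in the result was not tested. Without treated library 1, which leaves 2 treated libraries and 18 members tested, 9 members were called, all lower, against 13.4% of all genes (6.99% lower). Erythroid markers, which can accompany splenic blood formation, summed to 64.4 to 187 CPM in untreated and 0.74 to 11.5 in treated libraries. Macrophage markers summed to 415 to 1303 CPM in untreated and 65.2 to 176 in treated libraries, with 6 of 6 called lower, and 4 of 9 neutrophil markers were called higher, and the part of these lists was not tested.

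In tumor PMN-MDSC no difference of the module was detected after treatment. No member was called among 26 tested, by edgeR or by DESeq2, against 3.36% of all genes by edgeR (2.29% higher and 1.07% lower), and at an unadjusted p under 0.05 there were 2, against 18.2% of all genes. Pcna was at 57.0, 56.3, 64.3 and 66.9 CPM in untreated and 64.9, 73.0, 56.6 and 51.3 in treated libraries (-0.03 ± 0.15). Mcm6 was at 69.7, 49.3, 53.5 and 32.7 CPM against 85.4, 80.9, 32.4 and 26.3 (0.08 ± 0.35), and Top2a at 91.6, 109, 85.9 and 47.0 against 129, 143, 47.0 and 32.3 (0.01 ± 0.42). The Pcna groups overlapped within a narrow range, while for Mcm6 and Top2a treated libraries 1 and 2 were the highest of all and library 4 the lowest. In treated libraries 1 to 4, fibroblast markers summed to 136, 110, 23.3 and 28 CPM (28.4 to 46.1 in untreated), macrophage markers to 17676, 18599, 12063 and 7297 (9749 to 13299) and neutrophil progenitor markers to 60.2, 28, 12.8 and 18.9 (9.10 to 14.8), while monocyte markers summed to 1272 to 2792 in treated and 4167 to 8423 in untreated libraries. Their part in the result was not tested. Cdt1, at 7.28, 8.67, 8.39 and 8.54 CPM against 18.1, 18.1, 9.12 and 15.1, was the member whose treated libraries all lay above the untreated ones (0.85 ± 0.28, adjusted p = 0.137), as 7.64% of all genes did. Rrm2 (0.72 ± 0.41) and Ccnb2 (0.67 ± 0.46) followed, and Kif23 (-0.62 ± 0.28), Cenpa (-0.49 ± 0.33) and Mcm4 (-0.27 ± 0.20) had the lowest estimates.

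Whether the treatment acted differently between populations was tested with interaction terms, which share libraries with the comparisons above. In spleen, the effect in PMN-MDSC was below that in M-MDSC for Mcm3 (-2.02 ± 0.61, adjusted p = 0.0475), Mcm6 (-2.0 ± 0.55, adjusted p = 0.0338) and Pcna (-1.43 ± 0.30, adjusted p = 0.0107), 3 of 34 members tested, against 10.9% of all genes (6.45% lower). All are replication genes. Leaving out 1 library moved the count between 1 and 15. It was 15 of 34 without spleen PMN-MDSC treated library 1, against 16.5% of all genes (9.84% lower), and 1 without any 1 of PMN-MDSC untreated library 1, PMN-MDSC treated libraries 2 and 3, M-MDSC untreated libraries 1 and 2 and M-MDSC treated library 1. Pcna was called in all 15 of these fits, Mcm6 in 9 and Mcm3 in 4. Cdc6, a licensing factor, had the lowest estimate and was not called (-2.04 ± 0.81), and Kif11 (0.61 ± 1.13), Cdc45 (0.28 ± 0.67) and Nusap1 (0.27 ± 1.08) had the highest. In tumor, 0 of 26 members were called, against 0.0239% of all genes, with 11 at an unadjusted p under 0.05, all lower in PMN-MDSC, against 4.22% of all genes. The estimates ran from -1.83 ± 0.64 for Mcm7, -1.70 ± 0.85 for Birc5 and -1.70 ± 0.74 for Mcm2 to -0.62 ± 0.30 for Mcm4, 0.22 ± 0.50 for Cenpa and 0.50 ± 0.47 for Cdt1. Between compartments, 0 of 23 members were called in PMN-MDSC (3.5% of all genes) and 0 of 37 in M-MDSC (0.79%), with 2 at an unadjusted p under 0.05 in each, against 16.5% and 14.2% of all genes. In PMN-MDSC, Pcna came closest, its effect in tumor being above that in spleen by 1.08 ± 0.29 (adjusted p = 0.0528), and without spleen PMN-MDSC treated library 1 the count was 5 of 22, against 5.49% of all genes. The highest estimates there were those of Mcm6 (1.21 ± 0.55), Mcm5 (1.11 ± 0.79) and Pcna, and the lowest those of Ccna2 (-0.70 ± 1.01), Kif11 (-0.63 ± 1.18) and Top2a (-0.34 ± 1.05). In M-MDSC the highest were those of Kif11 (1.46 ± 0.89), Tpx2 (1.33 ± 0.79) and Mcm7 (1.27 ± 0.52), and the lowest those of Cenpa (-0.76 ± 0.59), Mcm4 (-0.34 ± 0.35) and Cdt1 (-0.16 ± 0.46).

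Untreated mice allowed the compartments and cell types to be compared, with the same untreated libraries serving in several comparisons. Tumor PMN-MDSC carried more RNA of the replication genes tested than spleen PMN-MDSC, while Kif23 was the only mitotic member to pass the test. Cdc6, Cdt1 and Cdc45 were too low to be tested, and their groups overlapped. Of 20 members tested, 8 were higher and 1 lower, against 59.1% of all genes called (29.4% higher and 29.7% lower). All 7 replication members tested were higher, from Mcm7 (0.65 ± 0.26, adjusted p = 0.0477) to Mcm6, at 22.3, 14.4, 11.2 and 13.5 CPM in spleen and 69.7, 49.3, 53.5 and 32.7 in tumor (1.60 ± 0.28, adjusted p = 0.00067). Pcna, at 17.4 to 22.8 CPM in spleen and 56.3 to 66.9 in tumor, was higher by 1.42 ± 0.15 (adjusted p = 4.35e-05), with Mcm3 also at 1.42 ± 0.30. The eighth was Rrm1, the large subunit of ribonucleotide reductase (1.20 ± 0.24, adjusted p = 0.00154).

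Of the 10 chromosome and spindle members tested in this comparison, none was called higher. Mki67 was at 190, 18.9, 293 and 170 CPM in spleen and 339, 322, 294 and 177 in tumor PMN-MDSC (0.67 ± 0.53, adjusted p = 0.3), and Kif11 at 15.4 to 23.7 against 10.4 to 30.9 (-0.02 ± 0.34). Tpx2 (-0.21 ± 0.24) and Prc1, a bundler of the central spindle (-0.12 ± 0.23), were the lowest after Kif23. Kif23 alone fell, from 179, 187, 230 and 259 CPM in spleen to 35.2, 78.6, 49.2 and 53.6 in tumor, without overlap, as for 24.5% of all genes in that direction (-2.11 ± 0.25, adjusted p = 6.67e-05). No annotated gene overlaps Kif23 on either strand. In the same libraries neutrophil markers were lower and macrophage markers higher in tumor, where the latter summed to 9749 to 13299 CPM against 415 to 1303 in spleen. Monocyte markers summed to 665 to 2050 CPM in spleen and 4167 to 8423 in tumor, with 4 of 6 called higher and 1 lower, and tumor epithelium markers to 16.3 to 33.4 and 126 to 765, with 4 of 5 tested called higher and 1 lower. The part of these lists in the result was not tested.

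Tumor M-MDSC had lower levels than spleen M-MDSC for 15 members and a higher level for 1, of 28 tested, against 28.4% of all genes called (12.7% lower and 15.7% higher). The filter bears on this, as 12 of the 28 had a mean under 25 counts in tumor M-MDSC and passed through spleen M-MDSC. Without the filter, 3 of 40 members had a positive estimate, against 46.7% of all genes. Top2a was at 138, 93.8, 227 and 187 CPM in spleen and 17, 62.7, 58.5 and 53.0 in tumor (-1.51 ± 0.36, adjusted p = 0.00951). Aurkb, the kinase of the chromosomal passenger complex, was at 10.0, 18.6, 24 and 17.9 CPM against 4.95, 8.09, 8.04 and 2.52 (-1.21 ± 0.34, adjusted p = 0.02). Kif11 (-2.07 ± 0.53), Rrm2 (-1.98 ± 0.49) and Nusap1, a spindle protein (-1.96 ± 0.58), differed most, and the groups of Top2a, Aurkb, Kif11 and Rrm2 did not overlap, as was so for 27.6% of all genes in that direction. Cenpa was higher in tumor, at 29.1, 35.7, 35.2 and 39.1 CPM against 13.7, 16.7, 29 and 24.5 (0.95 ± 0.24, adjusted p = 0.00976). Mcm4 (0.51 ± 0.19, adjusted p = 0.0604) and Pcna (0.08 ± 0.14) were not called, while Mcm7 (-1.44 ± 0.31), Mcm5 (-1.10 ± 0.25) and Mcm6 (-0.87 ± 0.29) were lower in tumor. The count was 9 without spleen M-MDSC untreated library 3 (22.7% of all genes called) and 8 in a fit over all groups (21.6%), and the neutrophil progenitor markers summed to 188 to 423 CPM in spleen and 3.78 to 156 in tumor. Macrophage markers summed to 807 to 1052 CPM in spleen and 3369 to 8319 in tumor M-MDSC, with 6 of 6 called higher, and neutrophil markers to 2560 to 6133 and 208 to 577, with 5 of 6 tested called lower and 1 higher. The part of these lists in the result was not tested.

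The difference between tumor and spleen was itself different in the 2 cell types. The interaction was called for 15 of 25 members tested, all with a larger tumor over spleen difference in PMN-MDSC, against 37.3% of all genes called (19.8% in that direction), with a median over all genes of 0.10. It was 2.55 ± 0.42 for Mcm6 (adjusted p = 0.000296), 2.53 ± 0.60 for Birc5 (adjusted p = 0.0042) and 2.28 ± 0.55 for Mcm2 (adjusted p = 0.00478). By role, 6 of 8 replication members, both nucleotide supply members and 4 of 11 chromosome and spindle members tested were called. In one fit over all groups 10 of 38 members were called, all in that direction, as were 1059 of 9794 genes. The count also moved when single libraries were left out, as given below. Kif23 (-0.63 ± 0.42) and Cenpa (-0.76 ± 0.34) had negative estimates that were not called by edgeR with TMM, and Mcm4 was the next lowest (0.59 ± 0.29). Cenpa was called lower with DESeq2 (-0.91 ± 0.36, adjusted p = 0.0315) and with RLE size factors (-0.91 ± 0.34, adjusted p = 0.0429).

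**Figure D4:**
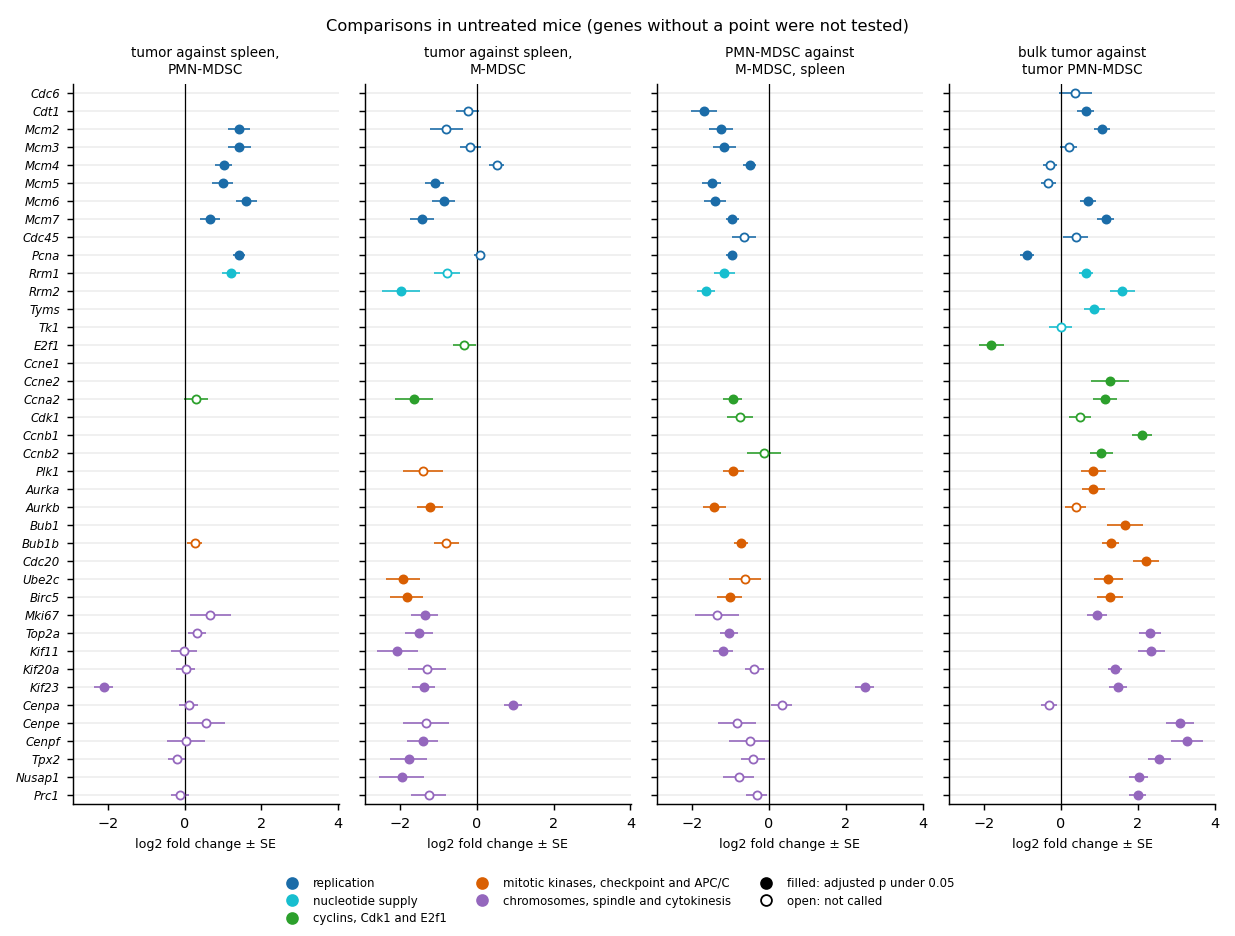
Estimated log2 fold change ± SE of each member tested in 4 comparisons of untreated libraries, by role. In PMN-MDSC, tumor over spleen, the replication members lie between 0.65 and 1.60 and Kif23 at -2.11, and in M-MDSC, tumor over spleen, the mitotic members lie below 0 apart from Cenpa at 0.95.

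Between the cell types in untreated spleen, 17 members were lower and 1 higher in PMN-MDSC than in M-MDSC, of 30 tested, against 64.4% of all genes called (33.4% lower and 30.9% higher). The filter bears on this, as 6 of the 30 had a mean under 25 counts in PMN-MDSC and passed through M-MDSC. Without the filter, 2 of 40 members had a positive estimate, against 58.3% of all genes. Rrm2 was at 12.7, 7.47, 10.2 and 7.39 CPM in PMN-MDSC and 32.2, 28.3, 44.3 and 48.3 in M-MDSC (-1.63 ± 0.24, adjusted p = 0.000282). Cdt1 (-1.68 ± 0.34) and Mcm5 (-1.49 ± 0.24) were the other 2 of the lowest estimates, and E2f1, at 2.57 to 5.57 CPM in PMN-MDSC and 11.1 to 18.2 in M-MDSC, did not pass the count filter. Of 9 replication members tested 8 were called lower, and of 11 chromosome and spindle members 2 were. Kif23 was the member called higher, at 179 to 259 CPM against 36.9, 33.0, 69.9 and 57.4 (2.49 ± 0.25, adjusted p = 2.92e-05). Its groups did not overlap, as was so for 18.8% of all genes in that direction, and Cenpa (0.33 ± 0.27) and Ccnb2 (-0.13 ± 0.44) had the next highest estimates. Neutrophil progenitor markers summed to 37.4 to 90.4 CPM in PMN-MDSC and 188 to 423 in M-MDSC, with 4 of 5 tested called lower and 1 higher, and their part in the result was not tested.

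In untreated tumor, 2 of 19 members tested were called, both higher in PMN-MDSC, against 13% of all genes (7.25% higher and 5.73% lower). Of the 19, 4 had a mean under 25 counts in M-MDSC and passed the filter through PMN-MDSC. Kif23 was at 35.2, 78.6, 49.2 and 53.6 CPM in PMN-MDSC and 11, 25.6, 15.8 and 10.1 in M-MDSC (1.82 ± 0.32, adjusted p = 0.00248), and Mcm6 at 32.7 to 69.7 against 15.9 to 34.4 (1.11 ± 0.27, adjusted p = 0.0166). The Kif23 groups were apart, as were those of 8.88% of all genes in that direction, and those of Mcm6 overlapped at their edges. Tpx2 (1.21 ± 0.46, adjusted p = 0.111) and Mcm7 (1.18 ± 0.37, adjusted p = 0.056) had larger estimates than Mcm6 and were not called, and Cenpa (-0.46 ± 0.21), Mcm4 (0.05 ± 0.22) and Bub1b (0.37 ± 0.34) were the lowest. The count was 6 without tumor M-MDSC untreated library 2 (9.71% of all genes called). In these libraries, macrophage markers summed to 9749 to 13299 CPM in PMN-MDSC and 3369 to 8319 in M-MDSC, with 5 of 6 called higher, 5 of 8 neutrophil markers tested were called higher and 4 of 6 monocyte markers lower, and their part in the result was not tested.

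Bulk tumor exceeded the sorted tumor cells in most members, with the largest estimates among genes of mitosis. Against tumor PMN-MDSC, 28 members were higher and 2 lower of 39 tested, with 69.5% of all genes called (36.1% higher and 33.3% lower), and against tumor M-MDSC, 32 were higher and 2 lower of 39, with 69.2% called (38.2% higher and 31% lower). The median over all genes was 0.09 and 0.17. The filter bears on these counts. Of the 39 members, 19 had a mean under 25 counts in tumor PMN-MDSC and 23 in tumor M-MDSC, and these passed through bulk tumor. Without the filter, 35 of 40 members had a positive estimate in either comparison, against 53.5% and 65.8% of all genes. Cenpf was at 437, 742, 199 and 251 CPM in bulk tumor, 35.8, 39.0, 35.6 and 27.5 in tumor PMN-MDSC and 4.40, 24.3, 24.1 and 20.2 in tumor M-MDSC. Ccnb1, the cyclin of mitotic entry, was at 28.4, 31.3, 19.1 and 25.8 CPM, against 4.85, 5.42, 4.80 and 4.74 and against 0.55, 4.72, 2.77 and 0. In neither gene did bulk tumor overlap the sorted cells, and 41.4% and 40.4% of all genes lay entirely above tumor PMN-MDSC and M-MDSC. Cenpf (3.28 ± 0.42 over PMN-MDSC and 4.29 ± 0.56 over M-MDSC), the kinetochore motor Cenpe (3.09 ± 0.37 and 4.2 ± 0.62) and Tpx2 (2.55 ± 0.30 and 3.79 ± 0.52) differed most in both.

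The median estimate of the 10 replication genes was 0.38 over tumor PMN-MDSC and 0.96 over tumor M-MDSC, and that of the 11 chromosome and spindle genes was 2.02 and 3.23. Mcm5 was at 30.7, 23.1, 23.6 and 29.8 CPM in bulk tumor and 33.4, 28.7, 28 and 20.4 in tumor PMN-MDSC, which overlapped (-0.33 ± 0.20), and Pcna was lower in bulk tumor, at 41.4, 29.4, 39.7 and 51.1 CPM against 57.0, 56.3, 64.3 and 66.9 (-0.89 ± 0.18, adjusted p = 0.000831). E2f1 was lower in bulk tumor than in both sorted populations, at 2.91, 2.92, 4.39 and 6.07 CPM against 9.01 to 15.2 in tumor PMN-MDSC (-1.81 ± 0.32, adjusted p = 0.000321) and 3.78 to 12.8 in tumor M-MDSC (-1.34 ± 0.38, adjusted p = 0.00821). It overlapped tumor M-MDSC and not tumor PMN-MDSC. Cenpa was lower than in tumor M-MDSC (-0.72 ± 0.20, adjusted p = 0.00727), where Pcna had the next lowest estimate and was not called (-0.41 ± 0.20). Tumor epithelium markers summed to 4937 to 6701 CPM in bulk tumor, 126 to 765 in untreated tumor PMN-MDSC and 102 to 332 in untreated tumor M-MDSC. Fibroblast markers summed to 847 to 1104, 28.4 to 46.1 and 1.26 to 32.3 CPM in the same order. The part of these lists in the result was not tested.

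Other cell cycle genes were read from lists of 37 replication, 44 mitotic and 33 G1 genes outside the 40. In tumor M-MDSC after treatment, Uhrf1, which maintains DNA methylation through replication (1.94 ± 0.40, adjusted p = 0.0383), and Clspn, an adaptor of the replication checkpoint (1.85 ± 0.32, adjusted p = 0.0224), rose among 19 replication genes tested, and 0 of 19 mitotic genes were called by edgeR, 12 being at an unadjusted p under 0.05, with all 19 estimates of either list positive. Of all genes in that comparison, 1.82% were called higher, 10.4% were higher at an unadjusted p under 0.05 and 50% had a positive estimate. In spleen M-MDSC, 4 of 24 replication genes rose, with Timeless, a fork protection factor, at 1.66 ± 0.21 (adjusted p = 0.0008), and 2 of 35 mitotic genes, Zwint and Pttg1, rose, against 10.7% of all genes called higher. In spleen PMN-MDSC, Rfc2, a subunit of the clamp loader, rose by 1.28 ± 0.22 among 4 replication genes tested and Cdc25b, a Cdk-activating phosphatase, by 1.88 ± 0.25 among 18 mitotic genes, against 6.1% of all genes called higher. In tumor PMN-MDSC none of the 19 replication, 25 mitotic and 25 G1 genes tested was called by edgeR, with 1, 2 and 4 at an unadjusted p under 0.05, against 18.2% of all genes.

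Of the G1 genes tested, 4 of 27 rose and 1 fell in spleen M-MDSC (10.7% and 8.96% of all genes), 1 of 25 rose in tumor M-MDSC (1.82%), and 1 of 22 rose, Lin54 of the MuvB core complex, and 1 fell in spleen PMN-MDSC (6.1% and 5.52%). The D-type cyclin Ccnd2 rose in both M-MDSC populations after treatment. It was at 4.18 to 11.6 CPM in untreated and 146 to 316 in treated spleen M-MDSC (5.11 ± 0.35, adjusted p = 2.67e-05), and at 47.3 to 68.7 against 171 to 280.0 in tumor M-MDSC (1.81 ± 0.23, adjusted p = 0.00694), without overlap in either. Estimates for Ccnd2 in spleen PMN-MDSC (0.93 ± 0.40) and tumor PMN-MDSC (0.06 ± 0.17) were not called. Among cyclin-dependent kinase inhibitors in spleen M-MDSC, Cdkn1a (p21) rose, from 8.69 to 26.4 CPM in untreated to 29.6 to 82.1 in treated libraries (1.69 ± 0.40, adjusted p = 0.0174), and Cdkn1b (p27) fell (-0.62 ± 0.15, adjusted p = 0.0203). In tumor M-MDSC, Cdkn1a (-0.61 ± 0.30) and Cdkn1b (-0.59 ± 0.19) were not called. In spleen PMN-MDSC, Ccnd1 was at 12.9 to 36.1 CPM in untreated and 0 to 3.20 in treated libraries (-4.11 ± 0.81, adjusted p = 0.0171), and it was not called in spleen M-MDSC (1.17 ± 0.40), tumor M-MDSC (1.46 ± 0.37) or tumor PMN-MDSC (-0.05 ± 0.44). In no treatment comparison that tested them were Ccnd3, Cdkn2c, Myc or Btg2 called, with Ccnd3 closest at 0.92 ± 0.23 in tumor PMN-MDSC (adjusted p = 0.0594) and 0.82 ± 0.24 in spleen PMN-MDSC (adjusted p = 0.0596).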

How the data were processed

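RNA of sorted MDSC and bulk tumor was made into libraries with a stranded total RNA kit, with ribosomal sequences depleted from the library before 13 PCR cycles and no molecular identifiers described. The authors aligned the reads to mm10 with ContextMap and BWA and deposited counts per gene, assigned by strand with featureCounts (Subread 1.4.6-p3) on Gencode annotation. These counts were used as deposited, with symbols and exon lengths from GENCODE M21 (GRCm38) and promoter windows from RefSeq (GRCm38.p6). 6 members have another annotated gene overlapping on the same strand and 14 on the opposite strand. 1 allele of the tumor line is not reported here.

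For each of 15 comparisons, edgeR 4.0.16 (R 4.3.3) was fitted on the libraries concerned with TMM scaling, robust dispersions and a minimum mean of 25 counts. The two-sided quasi-likelihood F-test was used, with Benjamini-Hochberg adjustment over all genes tested and a threshold of 0.05. CPM were taken over the library total, with a pseudocount of 1 before log2. The scripts were tested on simulated data. Alternatives were DESeq2 1.42.0, RLE and upper-quartile scaling, no count filter, a stricter call (adjusted p under 0.001 and at least 2-fold), a fit over all groups, and leaving out each library. A fit of tumor M-MDSC without 2 libraries was chosen after the data were seen.

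The 40 members, the other gene lists and the markers were chosen with earlier results of these data known. All members could be named. A fixed set of 19 is given library by library in at least 1 comparison, and the 3 highest and 3 lowest estimates of each comparison are named. Of the other lists, the called genes with the largest and smallest changes were eligible. In 48 pairs of libraries of the same group, none was a copy of another (chi-square per degree of freedom at least 6.28). At 793070 to 8886115 counts per library, 3 counts correspond to a level of 0.338 to 3.78 CPM, which covers counting error only.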

Additional observations from a re-analysis of the deposited data

Results flagged for a closer look

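Among 140 sets of 4 libraries examined (20 results in 7 groups), 6 held a library whose gap to the nearest other exceeded Dixon's critical ratio. Chance gives about 1 in 20, so 6 of 140 sets is no more than chance would give. In untreated tumor M-MDSC, library 1 was far below the other 3 on the log2(CPM + 1) scale for Plk1 (0, others 2.68 to 2.99), Top2a (4.17, others 5.75 to 5.99) and Cenpf (2.43, others 4.40 to 4.66). In untreated tumor PMN-MDSC, the module mean of library 4 was low (3.62, others 4.13 to 4.22) and Ccnb1 was high in library 2 (2.68, others 2.52 to 2.55). In bulk tumor the module mean of library 3 was 5.05, with the others at 5.39 to 5.45.

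The treatment effect in spleen differed between PMN-MDSC and M-MDSC by the interaction term for Mcm3 (-2.02), Mcm6 (-2.0) and Pcna (-1.43).

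The difference between tumor and spleen in untreated mice differed between PMN-MDSC and M-MDSC by the interaction term for 15 members. In log2 units it was 2.55 for Mcm6, 2.53 for Birc5, 2.28 for Mcm2, 2.18 for Mcm5, 2.17 for Mcm7, 2.14 for Kif11, 2.08 for Mki67, 2.05 for Rrm1, 2.0 for Ccna2, 1.96 for Rrm2, 1.93 for Top2a, 1.66 for Mcm3, 1.65 for Tpx2, 1.42 for Pcna and 1.14 for Bub1b.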

How the results depend on the processing

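Counts of members called are given here where they moved by more than 1.5 times, each with the share of all genes called in the same fit in brackets. The cause of each move was not tested. In one fit over all groups the count was 2 for treatment in spleen PMN-MDSC (24.1%), 7 for treatment in tumor M-MDSC (8.11%), 8 for tumor against spleen M-MDSC (21.6%), 10 for PMN-MDSC against M-MDSC in spleen (56.2%) and 1 for the interaction of treatment and compartment in PMN-MDSC (6.95%). DESeq2 gave 2 (18.8%), 7 (23.3%) and 12 (9.61%) for treatment in spleen PMN-MDSC, spleen M-MDSC and tumor M-MDSC, and 1 (6.23%) for that interaction. Upper-quartile scaling gave 2 for treatment in spleen PMN-MDSC (13%), 2 in tumor M-MDSC (3.10%) and 1 for that interaction (3.73%). With it the median of all genes was -0.16 in place of 0.01 for treatment in spleen PMN-MDSC, 0.17 in place of 0.01 for tumor against spleen PMN-MDSC and -0.33 in place of -0.08 for PMN-MDSC against M-MDSC in spleen. Without the count filter, which tests more low genes, the count was 1 for treatment in spleen PMN-MDSC (6.58%), 22 in tumor M-MDSC (4.10%), 27 for tumor against spleen M-MDSC (15%), 10 for the cell types in tumor (6.07%), 3 for treatment by compartment in M-MDSC (2.21%), and 9 (5.10%) and 2 (0.494%) for treatment by cell type in spleen and tumor. The stricter call gave 0 for treatment in spleen M-MDSC (2.47%) and tumor M-MDSC (0.012%), for tumor against spleen M-MDSC (8.60%), for the cell types in tumor (1.65%) and for treatment by cell type in spleen (0.119%), 3 for tumor against spleen PMN-MDSC (21.7%), for the cell types in spleen (23.2%) and for compartment by cell type (6.92%), and 16 (40.1%) and 18 (41.9%) for bulk tumor against PMN-MDSC and M-MDSC. Without untreated library 4 and treated library 2, an alternative chosen after the data were seen, 7 members were called for treatment in tumor M-MDSC (5.66%).

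Leaving out each library in turn gave 0 to 9 calls for treatment in spleen PMN-MDSC (4.18 to 13.4%), 0 in tumor PMN-MDSC (1.32 to 3.29%), 2 to 7 in spleen M-MDSC (12.7 to 20.5%) and 0 to 3 in tumor M-MDSC (0.366 to 6.02%). It gave 8 to 10 for tumor against spleen PMN-MDSC (51.9 to 62.8%), 9 to 18 for M-MDSC (22.6 to 32.4%), 16 to 21 (57.0 to 68.5%) and 2 to 6 (8.04 to 15.6%) for the cell types in spleen and tumor, and 26 to 30 (64.8 to 69.9%) and 32 to 35 (64.6 to 71.6%) for bulk tumor. For the interactions it gave 0 to 5 (0.926 to 5.49%) and 0 (0.0802 to 2.85%) for treatment by compartment in PMN-MDSC and M-MDSC, 1 to 15 (6.70 to 16.5%) and 0 (0 to 0.286%) for treatment by cell type in spleen and tumor, and 9 to 17 (31.2 to 45.3%) for compartment by cell type. The median over members put bulk tumor at 5.07. No direction of a called member reversed under any alternative run. The interaction of compartment and cell type gained 1 lower call, Cenpa, with DESeq2 and with RLE size factors.

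No paired analysis was possible because the columns of the count table carry no mouse number, so libraries that may share a mouse across cell types and compartments were fitted as independent. Depth limits the low members: untreated tumor M-MDSC library 4 held 793070 counts, and 26 of 40 members could be tested for treatment in tumor M-MDSC.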

Other observations

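In untreated spleen PMN-MDSC, library 2 was low in a few large mitotic genes and not in others. Mki67 was at 18.9 CPM in it and at 170 to 293 in the other 3 libraries, Cenpe at 2.99 against 24.4 to 35.9, and Cenpf at 2.99 against 29.9 to 52.2. Top2a, at 55.8 CPM in library 2 and 57.2 to 67.1 in the others, did not show this. These genes were chosen after their values were seen.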
